A study of Caenorhabditis elegans with 16 samples.

Results

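The endoplasmic reticulum (ER) of *Caenorhabditis elegans* folds secreted and membrane proteins, and 10 genes of its chaperone and stress sensing system were followed across strains and heat shock. They are the chaperone and folding genes hsp-3, hsp-4, fkb-4, pdi-2, crt-1 and cnx-1. With them are the sensor genes ire-1, pek-1 and atf-6, and xbp-1, whose mRNA the IRE-1 protein splices. All were chosen by gene name, and every transcript listed under such a name was taken, which gave 13 transcripts of 26080 (10 of 21544 gene names). All 13 had a mean of at least 1 normalized count and were tested, among 24401 transcripts in all.

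Whole worms at the L4 stage were measured as poly(A) RNA in 16 libraries. N2, the wild type, gave 3 libraries per condition. The ADAR mutants, which lack both adenosine deaminases that act on RNA, gave 5 per condition and came from 2 strains, BB4 (3 libraries), with the adr-1(gv6) I allele together with adr-2(gv42) III, and BB21 (2 libraries), with adr-1(tm668) I beside adr-2(ok735) III. All strains grew at 20 °C on OP50. Heat shock was 75 min at 34 °C, followed by 20 min at room temperature and 3 h at 20 °C before collection, whereas the standard worms stayed at 20 °C.

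When unfolded proteins build up in the ER, sensors in its membrane signal to the nucleus, and genes for chaperones and folding enzymes are turned on. In worms IRE-1, a kinase and RNase, splices the xbp-1 mRNA so that it encodes an active transcription factor. PEK-1, the worm PERK, phosphorylates the translation factor eIF2α, and ATF-6 is a membrane-bound transcription factor of a parallel arm. HSP-3 and HSP-4 are the worm counterparts of mammalian BiP, the main ER Hsp70, and hsp-4 is widely used as a reporter of this response.

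The libraries fell into sets that bear on the values below. In 10 libraries, whose titles end in 12_7 or 28_6, 4699505 to 9624995 reads were recovered, and in the other 6 there were 30011732 to 35693369. The labels do not say what the endings mean, and depth and whatever else sets them apart cannot be told apart here. The 28_6 libraries, N2 replicate 2 and BB4 replicate 1 in both conditions, stood apart in their ratios of heat shock to standard. In their heat shock and standard pairs the ratio of the cytosolic Hsp70 gene F44E5.4 was 0.553 to 0.816, against 6.74 to 11.5 in the other 6 pairs. For hsp-70 the ratio was 0.410 to 0.541 in the 28_6 pairs and 1.77 to 8.28 in the other 6. The 6 small heat shock transcripts of the hsp-16 family had ratios of 0.966 to 2.15 in the 28_6 pairs, highest for hsp-16.41, and of 2.58 or more in the other pairs. The 28_6 standard libraries were also the highest standard libraries for hsp-16.2, hsp-16.41, hsp-16.48 and hsp-16.49. For hsp-16.2 they held 1066 and 649 normalized counts, against 332 to 511 in the others, which lowers the ratio. For hsp-16.1, hsp-16.11, hsp-70 and F44E5.4 some other standard libraries were above BB4 replicate 1. Results are therefore also given without the 28_6 libraries, a choice made after seeing the data. Of 24 markers of 8 tissues 1 was not found, and no other marker was at 0 in any group. The summed oocyte and embryo markers were lower after heat shock in all 8 pairs (ratios 0.249 to 0.632), the 28_6 pairs included. Intestine markers (0.502 to 0.918) and germ line markers (0.755 at the lowest) were lower and pharynx markers (1.03 to 2.10) higher in all 8 pairs. Body muscle markers had ratios of 1.28 to 2.10 in the 6 other pairs and 0.973 and 0.918 in the 28_6 pairs, and hypodermis markers 1.24 to 5.83 against 0.937 and 1.84. Neuron markers (0.725 to 2.15) and sperm markers (0.947 to 1.96) moved either way, and the part of all these tissues in the results was not tested. In whole worms, fewer cells of a type and less RNA per cell cannot be told apart.

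Under standard conditions crt-1, hsp-3 and pdi-2 C07A12.4a had the highest medians per length. Over the 8 standard libraries, crt-1, which encodes the calcium-binding lectin chaperone calreticulin, had a median of 6959 normalized counts per kb of coding sequence (3898 to 7328). The hsp-4 transcript had a median of 1881 normalized counts per kb (1735 to 2222), below hsp-3, whose median was 3650 normalized counts per kb. The membrane lectin chaperone gene cnx-1, which encodes calnexin, had 1628 normalized counts per kb. The xbp-1 R74.3b transcript had 2952 normalized counts per kb, and the values of the sensor genes depended on the library set. In the 5 shallow libraries ire-1 had 231 normalized counts per kb or more, pek-1 40.7 to 94.1 and atf-6 23.2 to 31.0, with no overlap. In the 3 deep libraries ire-1 (344 to 446 normalized counts per kb) and pek-1 (384 to 426) overlapped, and atf-6 (137 to 165) lay below both. The fkb-4 transcript, from a gene for a peptidyl-prolyl isomerase of the FK506-binding family, had 18.3 to 50.7 normalized counts per kb over all 8 libraries, which overlapped atf-6 in the shallow libraries and lay below it in the deep ones. On the WBcel235 annotation hsp-3, pdi-2, pek-1 and atf-6 lie on chromosome X, hsp-4 and ire-1 on II, xbp-1 and cnx-1 on III, and crt-1 and fkb-4 on V.

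Heat shock was first compared with standard conditions for the chaperones and folding enzymes. In N2, 1 of 13 transcripts was called, fkb-4 (limma, Benjamini-Hochberg adjusted p under 0.05), where 2.90% of all transcripts were called. For the ADAR mutants, 2 of 13 were called, fkb-4 and hsp-4, where 7.40% of all transcripts were called. All these calls were higher after heat shock, a direction called for 2.36% of all transcripts in N2 and 5.01% in the ADAR mutants, whereas 0.537% and 2.39% were called lower. An unadjusted p under 0.05 was found for 1 of 13 members in N2 (19.8% of all transcripts) and 5 of 13 in the ADAR mutants (20.5%). The members' median log2 fold change was 0.03 in N2, with 9 of 13 above 0, and 0.36 in the ADAR mutants, with 10 of 13 above 0. The medians over all transcripts were 0.04 and 0.07.

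The strongest rise was that of fkb-4. Its standard N2 libraries held 18.3, 14.2 and 14.5 normalized counts, and the heat shock libraries 197, 47.5 and 221. The standard ADAR mutant values were 37.6, 27.9 and 39.4 in BB4 and 21.5 and 39.2 in BB21, and the heat shock values 259.7, 192 and 209 in BB4 and 184 and 317 in BB21. Every heat shock library was above every standard library of its genotype, and the lowest heat shock value was N2 replicate 2, a 28_6 library. Such separation in both genotypes was shown by 1 of 13 members, fkb-4, and by 3.58% of all transcripts. The log2 fold change was 2.96 (SE 0.50, adjusted p = 0.0114) in N2 and 2.78 (SE 0.39, adjusted p = 0.0017) in the ADAR mutants.

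Within pairs of the same strain and replicate number, fkb-4 was 3.34 to 15.3 times higher after heat shock in 8 of 8, a pattern of 11.9% of all transcripts. Few reads lay behind its low values, with 8 to 33 in the standard N2 libraries and 16 to 114 in the standard ADAR mutant libraries. The N2 call was lost when N2 standard replicate 1 (adjusted p = 0.0555), N2 standard replicate 2 (adjusted p = 0.0538) or N2 heat shock replicate 1 (adjusted p = 0.0597) was left out, whereas the call in the ADAR mutants held in 16 of 16 such fits. Without the 28_6 libraries the log2 fold changes of fkb-4 were 3.60 and 2.79, with adjusted p = 0.0073 for N2 and 0.00209 for the mutants.

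For hsp-4 the libraries split by set. In N2 the standard libraries held 4126, 4122 and 4380.5 normalized counts and the heat shock libraries 12328, 3288 and 11860.3. The standard ADAR mutant libraries held 3896, 3519.9 and 3467 in BB4 and 3421 and 3475 in BB21, and the heat shock libraries 3692, 12756 and 11285 in BB4 and 9626 and 9772 in BB21. The low heat shock values, 3288 and 3692, were the 28_6 libraries, and because of them the groups overlapped in both genotypes. In the other 6 pairs hsp-4 was 2.71 to 3.62 times higher after heat shock, and in the 28_6 pairs the ratios were 0.798 and 0.948. A rise in all 6 other pairs with a ratio under 1 in both 28_6 pairs was shown by hsp-4 and pdi-2 C07A12.4a, 2 of 13 members, and by 0.803% of all transcripts. The pattern restates the ratios of hsp-4, so hsp-4 meets it by construction and the share is no test of it. The body muscle markers split between the same pairs.

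Over all libraries the log2 fold change of hsp-4 was 1.29 in the ADAR mutants (SE 0.36, 95% confidence interval 0.52 to 2.06, adjusted p = 0.0419) and 0.90 in N2 (SE 0.47, interval -0.10 to 1.89, adjusted p = 0.309), so that in N2 it did not pass. The call in the ADAR mutants was close to the threshold and held in 4 of 16 fits that left out 1 library, with adjusted p-values from 0.00739 to 0.114. It held without BB4 heat shock replicate 1 (log2 1.60) and without N2 heat shock replicate 1, 2 or 3, and it was lost without any of the other 12 libraries. Without N2 heat shock replicate 2 the value in N2 was 1.52 (adjusted p = 0.0379). Leaving out the 28_6 libraries removed the heat shock libraries in which hsp-4 was low and left N2 with 4 libraries. Without them hsp-4 passed in both genotypes, with 1.51 in N2 (adjusted p = 0.0156) and 1.64 in the mutants (adjusted p = 0.00118), where 1.23% and 4.98% of all transcripts were called. With the replicate block as well, 3 of 13 members passed in N2 (15.8% of all transcripts), hsp-4 and fkb-4 higher and ire-1 lower. In the ADAR mutants 8 of 13 passed (19.8%), hsp-4, fkb-4, crt-1 and all transcripts of pdi-2 and xbp-1. BB4 heat shock replicate 1, left out here, was the lowest mutant heat shock library for hsp-4 and all transcripts of pdi-2 and xbp-1. Leaving it out after seeing the data favours their calls, so no conclusion is drawn from them.

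**Figure D1:**
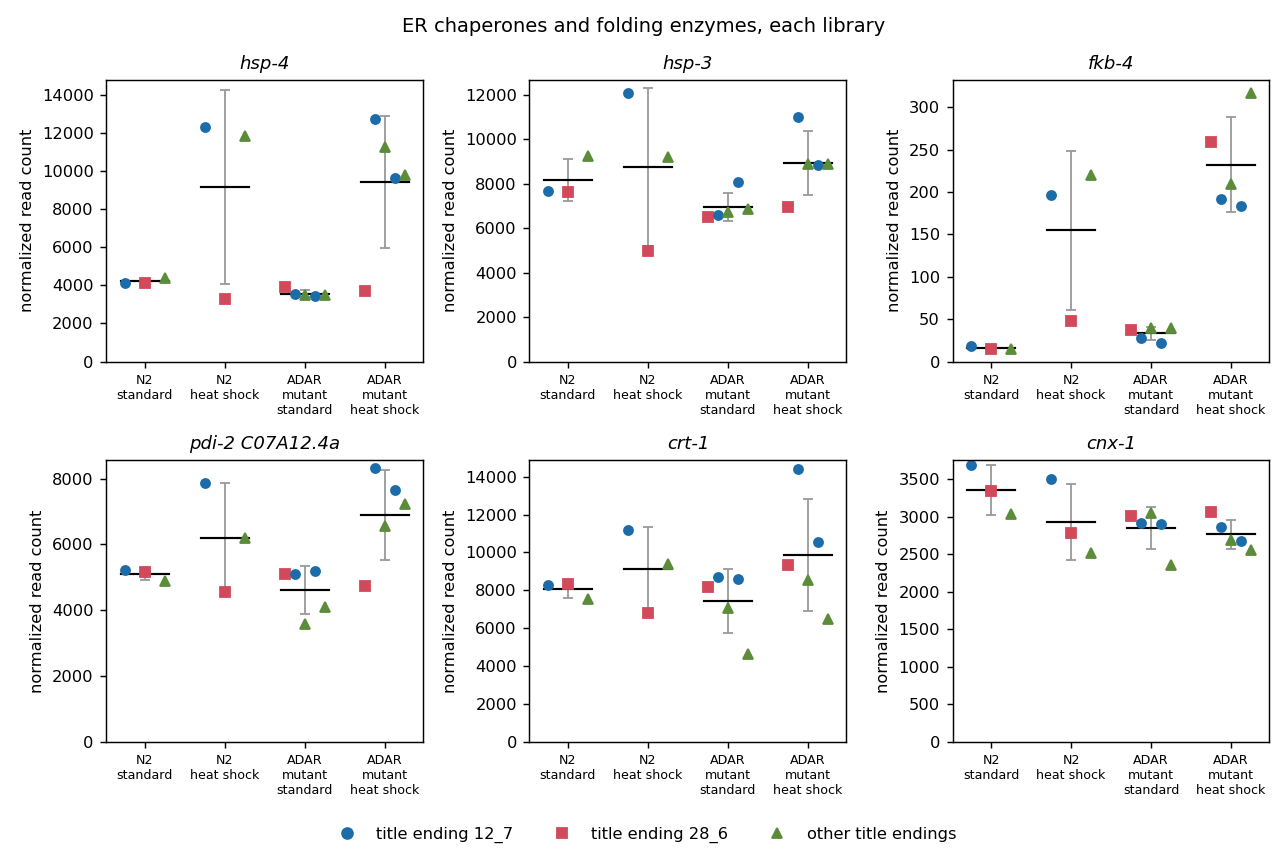
Normalized counts (linear axes from 0) of 6 chaperone and folding transcripts in each library, marked by title ending, with the mean (black line) and SD (grey bar) of N2 (n = 3) and the ADAR mutants (n = 5) in each condition. The 28_6 libraries of hsp-4 after heat shock lie at 3288 and 3692, among the standard libraries, while the other 6 heat shock libraries lie at 9626 to 12756.

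The other BiP gene, hsp-3, moved less. Its N2 values were 7648, 7607 and 9249.7 under standard conditions and 12058, 4981 and 9185 after heat shock. The ADAR mutant libraries ran from 6503 to 8065 (median 6718) under standard conditions and from 6936 to 11012 (median 8880) after heat shock. The groups overlapped in both genotypes, and the lowest heat shock value was again a 28_6 library. The log2 fold change was 0.01 in N2 (SE 0.27, adjusted p = 0.995) and 0.35 in the ADAR mutants (SE 0.21, adjusted p = 0.398).

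The ratio of hsp-4 to hsp-3 within a library does not depend on its size factor. It was 0.424 to 0.599 in all 8 standard libraries. After heat shock it was 1.02 to 1.29 in 6 libraries and 0.660 and 0.532 in the 28_6 libraries. The ratio on the log2 scale was higher after heat shock by 0.94 in the ADAR mutants (exact two-sided permutation test, p = 0.0238, where the smallest possible is 0.00794) and by 0.88 in N2 (exact permutation p = 0.1, the smallest that 3 against 3 can give). Over pairs, an exact sign-flip test gave p = 0.125 in the ADAR mutants, where the smallest possible is 0.0625. Over all 8 pairs of both genotypes the mean difference was 0.92, 7 of 8 pairs were higher, and the exact sign-flip test gave p = 0.0156, where the smallest possible is 0.0078. Without the 28_6 libraries the difference was 1.22 in the ADAR mutants (exact permutation p = 0.0286, the smallest possible). In N2 it was 1.18 (exact permutation p = 0.333, also the smallest possible with 4 libraries). The heat shock libraries left out were those with the lowest ratios. In the ADAR mutants this put the p-value at its floor, and in N2 it was at its floor with all libraries too. No conclusion is drawn from the p-values without the 28_6 libraries. The transcripts encode similar proteins, and the sharing of reads between them was not tested.

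**Figure D2:**
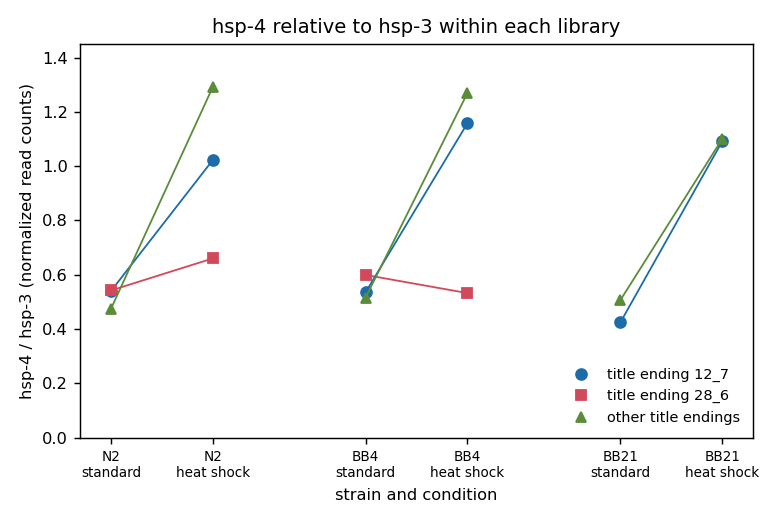
Ratio of hsp-4 to hsp-3 normalized counts in each library, with lines joining the standard and heat shock libraries of the same strain and replicate number. The 8 standard libraries lie at 0.424 to 0.599, and 6 of the 8 heat shock libraries at 1.02 to 1.29.

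The pdi-2 gene encodes a protein disulfide isomerase, which forms and rearranges disulfide bonds. Its most abundant transcript, C07A12.4a, held 5207, 5162 and 4902 normalized counts in standard N2 and 7879, 4554 and 6195 after heat shock. The ADAR mutant values were 3586 to 5193 (median 5107) under standard conditions and 4734 to 8330.3 (median 7218) after heat shock. The groups overlapped in both genotypes, with the 28_6 heat shock libraries lowest. The log2 fold change was 0.57 in the ADAR mutants (SE 0.19, adjusted p = 0.0923) and 0.25 in N2 (adjusted p = 0.674), so neither passed. With the replicate number as a block, all 3 pdi-2 transcripts passed in the ADAR mutants (adjusted p = 0.0269, 0.0370 and 0.0334), which made 5 of 13 members called, where 23.0% of all transcripts were called. Reads that match several pdi-2 transcripts counted for each, so the 3 are not independent. The ratio of C07A12.4b to C07A12.4a was 0.169 to 0.385 over the 16 libraries, lowest in N2 heat shock replicate 1.

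The lectin chaperones did not pass in either genotype. The crt-1 libraries of N2 held 8300.2, 8311 and 7527 normalized counts under standard conditions and 11186, 6795 and 9399 after heat shock, and the groups overlapped. For crt-1 the log2 fold change was 0.15 in N2 (SE 0.30, adjusted p = 0.879) and 0.39 in the ADAR mutants (SE 0.23, adjusted p = 0.387). In the 6 pairs outside the 28_6 libraries its ratio was 1.21 to 1.66, and in the 28_6 pairs it was 0.818 and 1.14. The cnx-1 values of N2 were 3690.0, 3348 and 3033 normalized counts under standard conditions and 3497, 2777 and 2516 after heat shock, which overlapped as well. For cnx-1 the log2 fold change was -0.21 in N2 (SE 0.18, adjusted p = 0.625) and -0.04 in the ADAR mutants (adjusted p = 0.955).

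**Figure D3:**
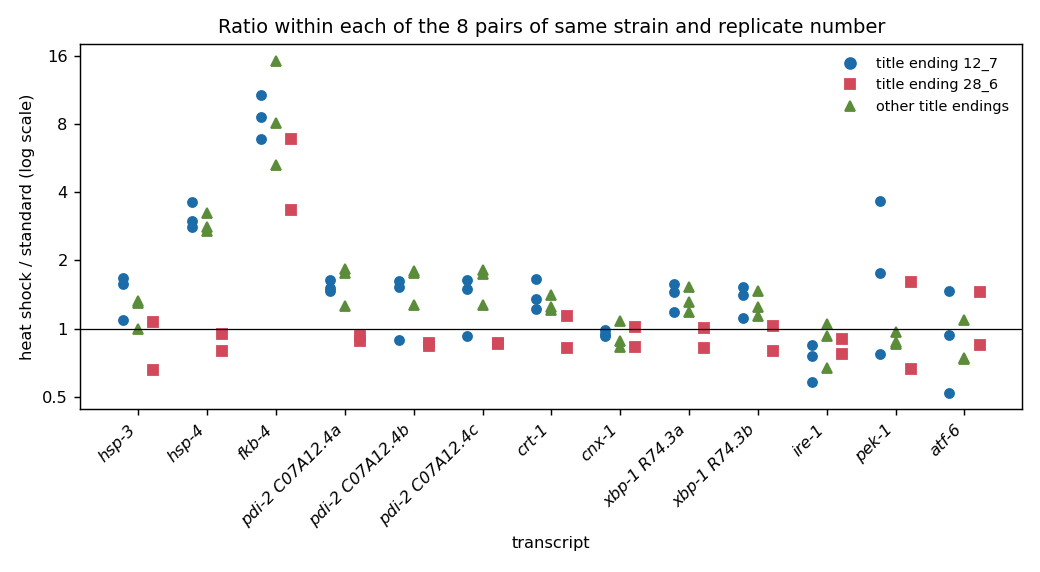
Ratio of heat shock to standard normalized counts of each member in the 8 pairs of the same strain and replicate number (log axis), with the 28_6 pairs marked. The fkb-4 ratios lie at 3.34 to 15.3 in all 8 pairs, and those of hsp-4 lie at 2.71 to 3.62 in 6 pairs and below 1 in the 28_6 pairs.

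No transcript of xbp-1 or of the sensor genes passed in either genotype. Both xbp-1 transcripts had higher values after heat shock in 7 of 8 pairs. The ratio was 1.18 to 1.58 for R74.3a and 1.12 to 1.53 for R74.3b in the 6 pairs outside the 28_6 libraries, and 0.800 to 1.03 over both in the 28_6 pairs. The log2 fold change of R74.3a was 0.21 in N2 (adjusted p = 0.757) and 0.35 in the ADAR mutants (adjusted p = 0.372), and that of R74.3b was 0.17 (adjusted p = 0.817) and 0.30 (adjusted p = 0.456). With the replicate block and without the 28_6 libraries both passed in the ADAR mutants (limma adjusted p = 0.0242 and 0.0298). That fit left out the mutant heat shock library in which both were lowest, which favours these calls. In N2 R74.3a held 1116, 1310 and 1275 normalized counts under standard conditions and 1325, 1313 and 1671 after heat shock, so that every heat shock library was above every standard one, a separation that 2680 of the 24401 transcripts showed in N2. The ratio of R74.3a to R74.3b was 0.464 to 0.534 in all 16 libraries. Reads shared by both transcripts counted for each, and these counts hold no measure of the splicing by IRE-1.

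For ire-1 the N2 libraries held 831, 746 and 1294 normalized counts under standard conditions and 482, 668 and 869 after heat shock, and the groups overlapped. The log2 fold change was -0.51 in N2 (SE 0.36, adjusted p = 0.492) and -0.21 in the ADAR mutants (adjusted p = 0.802). It was lower after heat shock in 7 of 8 pairs, with ratios of 0.580 to 1.05. In a fit with a term for the library set it passed in N2 (log2 -0.51, adjusted p = 0.0345), where 22.9% of all transcripts were called. It also passed in N2 with the replicate block and without the 28_6 libraries (log2 -0.68, limma adjusted p = 0.0489). The N2 pair left out there had the N2 ratio nearest 1 (0.895), which favours this call.

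The values of the other sensors differed between the library sets. Under standard conditions pek-1 held 1240 to 1375 normalized counts in the 3 deep libraries and 132 to 304 in the 5 shallow ones, a ratio of means of 7.04, and after heat shock 1078 to 1261 against 124 to 481. The values of atf-6 were 243 to 292 against 41.0 to 54.8 under standard conditions, a ratio of 5.60, and 207 to 264 against 28.5 to 78.5 with heat shock. For ire-1 the ratio of deep to shallow means was 1.55 under standard conditions. In both conditions every deep library was above every shallow one for 3 of 13 members, ire-1, pek-1 and atf-6, a pattern of 23.7% of all transcripts. The summed body muscle markers differed in the same way, with 41747 to 57718 in deep and 13495 to 24586 in shallow standard libraries. Pharynx markers did so too (2264 to 4312 against 697 to 1606). Intestine markers (12036 to 13916 against 19977 to 22726) and sperm markers (1139 to 1266 against 2259 to 2952) went the other way. Neuron markers did as well (870 to 1081 against 1124 to 1549), and the other marker lists overlapped under standard conditions. After heat shock germ line markers were wholly higher in the deep libraries (9888 to 11402 against 7426 to 8684). Hypodermis markers were then higher there too (923 to 2531 against 47.6 to 843). The part of these tissues in the sensors' values was not tested. Because of the spread between library sets the heat shock log2 fold changes of pek-1 (0.03, SE 1.11, in N2 and 0.36, SE 0.86, in the ADAR mutants) and of atf-6 (-0.28, SE 1.03, and -0.02, SE 0.80) were imprecise.

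**Figure D4:**
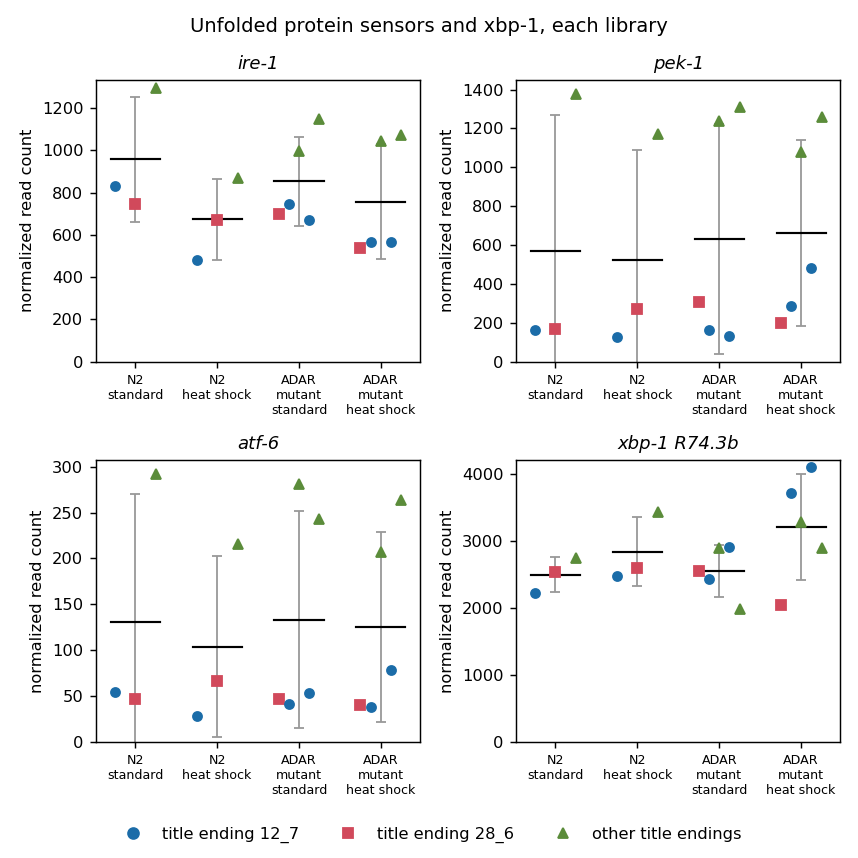
Normalized counts (linear axes from 0) of ire-1, pek-1, atf-6 and xbp-1 R74.3b in each library, marked by title ending, with the mean (black line) and SD (grey bar, ending at the axis where it would pass below 0) of N2 (n = 3) and the ADAR mutants (n = 5) in each condition. The deep libraries (triangles) of pek-1 lie at 1078 to 1375 and all others at 124 to 481.

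The strains were compared to see whether the loss of ADARs moved these genes. The difference between the heat shock responses of the ADAR mutants and N2 was called for 0 of 13 members by limma, edgeR and DESeq2, where 0% of all transcripts were called by each. None had an unadjusted limma p under 0.05, which 1.40% of all transcripts had. The difference was 0.40 for hsp-4 (95% confidence interval -0.86 to 1.65), -0.18 for fkb-4 (-1.53 to 1.18) and 0.32 for pdi-2 C07A12.4a (-0.35 to 0.99) on the log2 scale. These intervals do not exclude a difference of more than a doubling for hsp-4 or fkb-4.

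Under standard conditions 0 of 13 members differed between the ADAR mutants and N2 (limma, adjusted p under 0.05), where 0.00410% of all transcripts were called. The fkb-4 values of all 5 ADAR mutant libraries, 21.5 to 39.4, were above all 3 N2 values, 14.2 to 18.3, as for 2.85% of all transcripts. Its log2 difference was 1.01 (SE 0.45, interval 0.05 to 1.96, limma adjusted p = 1), and it was the 1 member with an unadjusted limma value under 0.05, as for 3.88% of all transcripts. For hsp-4 all 5 ADAR mutant libraries, 3421 to 3896, were below all 3 N2 libraries, 4122 to 4380.5, a pattern of 1.96% of all transcripts, with a log2 difference of -0.24 (SE 0.42). After heat shock 0 of 13 members differed, where 0% of all transcripts were called, and none had an unadjusted limma p under 0.05 (4.64% of all transcripts). The genotypes overlapped for every member after heat shock, whereas 0.607% of all transcripts lay wholly higher in the ADAR mutants and 0.770% wholly lower. The difference for fkb-4 was then 0.83 on the log2 scale (SE 0.45). Between BB4 and BB21, 0 of 13 members differed in either condition (0% of all transcripts) and none had an unadjusted p under 0.05 by limma, edgeR or DESeq2, where limma gave one for 0.197% of all transcripts in standard worms and 0.512% in heat shocked ones. Their log2 differences ranged from -0.48 to 0.33 under standard conditions and from -1.06 to 0.34 after heat shock.

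**Figure D5:**
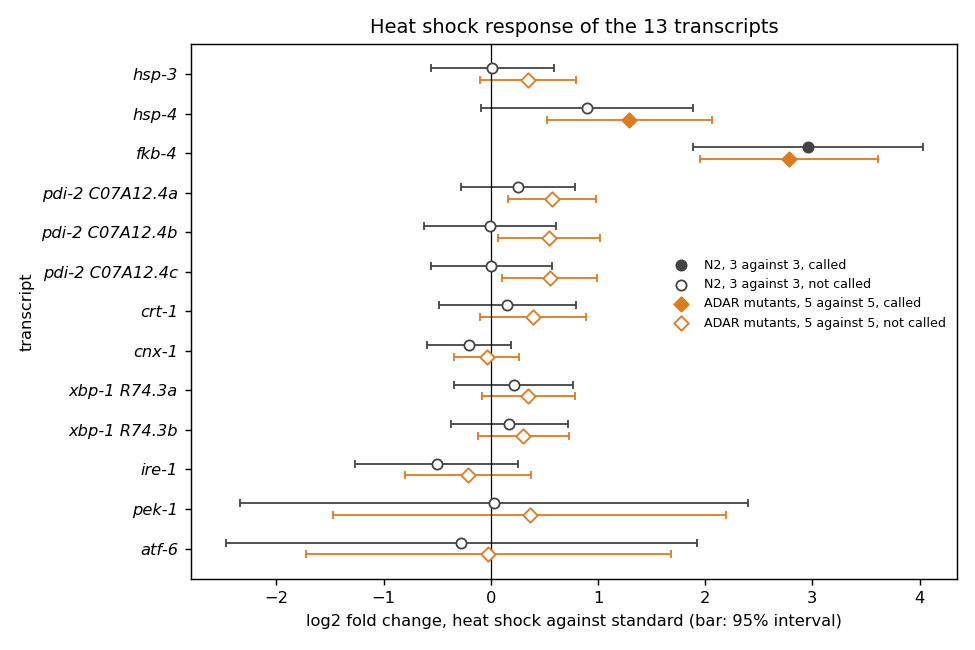
Log2 fold change of heat shock against standard conditions for each of the 13 transcripts in N2 and in the ADAR mutants (limma, with 95% confidence intervals), with filled symbols where the adjusted p was under 0.05. The intervals of fkb-4 lie above 0 in both genotypes, that of hsp-4 lies above 0 in the ADAR mutants (0.52 to 2.06) and spans 0 in N2 (-0.10 to 1.89).

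Other genes of the ER system were read from the same fits, where 2.90% of all transcripts were called in N2 and 7.40% in the ADAR mutants. In short lists such shares amount to few calls, so a low count below is not by itself a result about a list. Of 24 transcripts of 18 further chaperone and folding genes, 0 passed in N2 (median log2 fold change -0.09, 10 above 0) and 1 in the ADAR mutants (median 0.19, 24 above 0). That transcript was dnj-27, which encodes an ER protein with DnaJ and thioredoxin domains, with a log2 fold change of 1.34 (SE 0.37, adjusted p = 0.0413) in the ADAR mutants and 0.82 (adjusted p = 0.374) in N2. Its call held in 5 of 16 fits that left out 1 library, those without BB4 heat shock replicate 1, N2 heat shock replicate 1, 2 or 3 or N2 standard replicate 3, and the adjusted p-values ran from 0.0043 to 0.111. The disulfide isomerase gene C14B9.2 had 0.70 there (adjusted p = 0.0982) and the isomerase gene fkb-3 had 0.73 (adjusted p = 0.129). For N2, 1 of the 24 had an unadjusted p under 0.05 by limma, and edgeR and DESeq2 called 0.

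Of 18 transcripts of 15 genes of ER-associated degradation, which returns misfolded proteins to the cytosol, none passed in either genotype by limma, edgeR or DESeq2, and 0 had an unadjusted limma p under 0.05. Their median was -0.25 in N2, with 0 above 0, and -0.15 in the ADAR mutants, with 3 above 0. Over all transcripts 52.1% and 54.6% were above 0. The lowest adjusted p was that of sel-1, a subunit of a ubiquitin ligase complex, with -0.62 in N2 (adjusted p = 0.288).

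Of 13 transcripts of 12 genes for translocation into the ER, 1 fell in N2 and none passed in the ADAR mutants. It was sec-61.A, the channel subunit, with -0.98 in N2 (SE 0.21, adjusted p = 0.0298) and -0.34 in the ADAR mutants (adjusted p = 0.260). The N2 call held in 12 of 16 fits that left out 1 library. It was lost without N2 heat shock replicate 1 or N2 standard replicate 1, 2 or 3 (adjusted p-values up to 0.127) and without the 28_6 libraries. The median of these transcripts was -0.49 in N2, with 0 above 0, and -0.11 in the ADAR mutants, with 4 above 0. The ADAR mutants had 0 with an unadjusted limma p under 0.05, and edgeR and DESeq2 called 0.

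Of 16 transcripts of 7 factors downstream of the sensors none passed by limma, with 2 in N2 and 1 in the ADAR mutants at an unadjusted p under 0.05 and medians of 0.12 in N2 and 0.28 in the ADAR mutants. The ckb-2 transcript, from a choline kinase gene, had 1.69 (adjusted p = 0.212) and 1.82 (adjusted p = 0.0654). By edgeR and DESeq2 ckb-2 was called higher in the ADAR mutants and not in N2, where DESeq2 called 1 other transcript lower, T04C10.4, listed as atf-5, and edgeR called 0. Of 9 transcripts of cytosolic heat shock genes 3 rose in N2 (median 2.01) and 6 in the ADAR mutants (median 1.88), and 6 and 8 without the 28_6 libraries. The shares of all transcripts called were 2.90% and 7.40%, and 1.23% and 4.98% without those libraries. Low ratios of these same genes set the 28_6 libraries apart, so more calls without them were built in and are no test. In N2 the 3 were hsp-16.41 (2.22, limma adjusted p = 0.0462) and hsp-16.48 and hsp-16.49 (both 2.13, limma adjusted p = 0.0460), of which the last 2 share their reads. F44E5.4 and F44E5.5 also had nearly the same values (16183 and 16173.5 in N2 heat shock replicate 1). So did hsp-16.1 and hsp-16.11 (9899 and 10054 there), so the 9 transcripts are not independent.

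The replicate block moved the counts of these lists. In N2, where it called 19.5% of all transcripts, it called 1 of the 24 further chaperone and folding transcripts higher, 3 of the 13 translocation transcripts lower, 1 of the 16 downstream transcripts lower and 6 of the 9 cytosolic transcripts higher. In the ADAR mutants, where it called 23.0% of all transcripts, 7 of the 24 folding transcripts, 1 of the 16 downstream transcripts and 8 of the 9 cytosolic transcripts were higher and 0 of the 13 translocation transcripts passed. It called 0 of the 18 degradation transcripts in either genotype.

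The transcripts whose log2 values were most like those of hsp-4 over the 16 libraries were nurf-1 F26H11.2f (Pearson's r = 0.964), nurf-1 F26H11.2e (0.957), dnj-27 (0.956) and scp-1 (0.955). For hsp-3 they were nucb-1 and ngp-1 (both 0.857) and pab-1 (0.856). Among the members, hsp-4 had r = 0.894 with pdi-2 C07A12.4a, 0.811 with hsp-3, 0.766 with fkb-4 and -0.21 with cnx-1. These correlations describe 16 libraries that share groups and library sets.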

How the data were processed

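Sequencing gave single 50-nt reads. Per the methods, Bowtie placed them, after trimming and merging of identical reads, on WS220 transcripts, and a read could count for several transcripts. The signal values deposited by the authors are read counts per transcript divided by 1 size factor per library, from DESeq2, and are called normalized counts here. Versions used by the authors are not given in the sources used here. The comparison table holds the authors' log2 fold changes and p-values and was not used. All values (100%) were whole multiples of the library's step within 0.001 reads, so reads were recovered.

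Tests used limma 3.58.1 in R 4.3.3 with variance trends on log2(normalized count + 1), since the values are not counts, with 4 groups over all 16 libraries and transcripts with a mean of at least 1. A call is a Benjamini-Hochberg adjusted p under 0.05 over all transcripts tested. Fold changes are on this log2 scale, which understates those of low genes. On the recovered reads, edgeR 4.0.16 called 396 transcripts in N2 and 1781 in the ADAR mutants, DESeq2 1.42.0 called 2076 and 3104, and limma called 708 and 1805. Fits were tested on simulated data. Figures were drawn with matplotlib 3.10.9 in Python 3.11.15.

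The labels call the libraries biological replicates and number them. Deviations from the group means of same-numbered libraries of a strain correlated in all 8 pairs (r = 0.385 to 0.822), but only 4 of 8 correlated best with their own number. Libraries of a pair also share their library set, so these correlations do not show that the numbers mark pairs. In BB4 replicate 3 the titles end in 4_9 and 5_9. Taking the numbers as pairs for the replicate block was therefore an assumption. Members and gene lists were chosen with earlier results of these data known. Named genes were all members and, of each pathway list, those with the lowest adjusted p or the highest mean, of which the text gives some, and the transcripts most like hsp-4 and hsp-3. Alternatives were other tools, normalizations, filters and pseudocounts, the replicate block, a library set term, library sets or mutant strains alone, and leaving out each library. No sequences or coordinates are given, since the annotation is WBcel235.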

Additional observations from a re-analysis of the deposited data

Results flagged for a closer look

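Of 26 groups of 5 libraries tested for a single value far from the rest, 5 had one. Chance flags about 5 percent of such groups. The groups share libraries, and transcripts of 1 gene share reads, so the count is not set against that share. In the ADAR mutants after heat shock, BB4 replicate 1, a 28_6 library, was far below the others for pdi-2 C07A12.4b (1303 normalized counts, the nearest 2471) and for pdi-2 C07A12.4c (1192, the nearest 2092). Under standard conditions BB4 replicate 1 was above the others for hsp-4 (3896, the nearest 3519.9), BB21 replicate 1 was above them for hsp-3 (8065, the nearest 6867), and BB21 replicate 2 was below them for cnx-1 (2362, the nearest 2897).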

How the results depend on the processing

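The number of members called for heat shock in N2, 1 in the main analysis, was 0 with BB4 alone or BB21 alone as the mutants, 2 with a library set term or without the 28_6 libraries, 3 with the replicate block without the 28_6 libraries, and 0 to 2 when 1 library was left out. In the ADAR mutants it was 2 in the main analysis and 0 with BB4 alone or BB21 alone. It was 1 in the 12_7 and 28_6 libraries alone or with a log2 fold change above 2, and 4 with DESeq2. It was 5 with the set term or the replicate block, 8 with the block without the 28_6 libraries, and 1 to 5 when 1 library was left out. The share of all transcripts called moved too. In the ADAR mutants it was 7.40% in the main analysis, 23.0% with the block and 19.8% with the block without the 28_6 libraries. In N2 it was 2.90%, 22.9% with the set term, 1.23% without the 28_6 libraries and 15.8% with the block as well. Shares of the other settings are not all given, so these counts are no result about the members. The log2 ratio of hsp-4 to hsp-3 in the ADAR mutants missed the threshold with the block (0.94, exact sign-flip p = 0.125) and in the 12_7 and 28_6 libraries alone (0.77), and ranged from 0.85 to 1.17 when 1 library was left out. The replicate block changed no other call of a member in these comparisons than those given here and in the report, and its counts for the other lists stand there.

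Small fold changes turned direction. For pdi-2 C07A12.4b in N2 the value was 0.046 with DESeq2, 0.034 with edgeR, 0.023 with TMM, 0.24 with quantile normalization and 0.092 without the 28_6 libraries, and for C07A12.4c it was -0.17 in the 12_7 and 28_6 libraries alone. For pek-1 in N2 it was -0.12 with DESeq2, -0.14 with edgeR and -0.30 without the 28_6 libraries. For atf-6 in the ADAR mutants it was 0.071 in the 12_7 and 28_6 libraries alone, 0.33 with BB21 alone and 0.031 without the 28_6 libraries. The difference of responses of fkb-4 was 0.33 in the 12_7 and 28_6 libraries alone, 0.058 with BB21 alone, 0.033 with a pseudocount of 10 and 0.077 with quantile normalization. That of hsp-4 between genotypes after heat shock was -0.16 without the 28_6 libraries. The cause was not tested.

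With 1 library left out the ranges in N2 were -0.27 to 0.37 for hsp-3, 0.57 to 1.52 for hsp-4, 2.56 to 3.66 for fkb-4, -0.30 to 0.15 and -0.23 to 0.16 for pdi-2 C07A12.4b and C07A12.4c, -0.0082 to 0.35 for crt-1, -0.86 to 1.04 for pek-1 and -1.04 to 0.56 for atf-6. In the ADAR mutants they were 1.16 to 1.60 for hsp-4, -0.040 to 0.79 for pek-1 and -0.40 to 0.37 for atf-6. For the difference of responses they were -0.23 to 0.72 for hsp-4 and -0.88 to 0.22 for fkb-4, and for hsp-4 between genotypes after heat shock -0.47 to 0.48. Depth limits the low values, which rest on as few as 8 reads in a library for fkb-4 and 9 for atf-6.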
